A study of Mus musculus with 10 samples.

Results

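Oxidative phosphorylation is carried out by large enzyme complexes of the inner mitochondrial membrane, and the genes of their nuclear-encoded subunits were followed here in primary mouse hepatocytes. Members were all genes whose symbol begins with Nduf, Uqcr, Cox4 to Cox8 or Atp5, plus Sdha to Sdhd, taken from probe sets with exactly 1 gene symbol in the array annotation. For a gene with several probe sets the one with the highest mean over the 10 libraries was used. The rule found 88 member genes on 113 probe sets, of 16401 genes with a symbol of their own in the table. The rule also took in 7 factors that assemble complex I (Ndufaf1 to Ndufaf7), which are counted apart from the 34 complex I subunits. Complex II had 4 members, complex III 8, complex IV 18 and complex V, the ATP synthase, 17.

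The hepatocytes came from male C57BL6/J mice aged 10 weeks, and all of them had carried an adenovirus with a short hairpin RNA for 72 h at 2 to 4 plaque-forming units per cell. The hairpin was directed at Kat2b (shKAT2B), at Wdr5 (shWDR5) or was non-specific (shNS). Cells of each arm were then exposed for 90 min to 100 nM glucagon or to PBS. There were 2 libraries of shKAT2B glucagon and 1 of shKAT2B PBS, 2 of shWDR5 glucagon and 1 of shWDR5 PBS, and 2 each of shNS glucagon and shNS PBS. Each library was a pool of RNA from 3 dishes, and the labels do not give separate animals for the libraries of a group, so p-values measure the spread between these pools. All arms carried virus, and no untransduced cells were used here.

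Complex I takes electrons from NADH and complex II takes them from succinate. Both pass them through ubiquinone to complex III, which hands them by way of cytochrome c to complex IV, cytochrome c oxidase. Complexes I, III and IV pump protons, and complex V uses the proton gradient to make ATP. In the liver this supplies the ATP that gluconeogenesis and urea synthesis consume. WDR5 is a core subunit of MLL/SET histone methyltransferase complexes and KAT2B (also called PCAF) is a histone acetyltransferase. Glucagon, the fasting hormone, raises cyclic AMP in hepatocytes and induces Ppargc1a, a coactivator known for driving respiratory genes in muscle and brown fat.

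Both hairpins lowered their targets. Wdr5 was 3.33-fold lower in shWDR5 than in shNS (log2 change -1.74 ± 0.07, SE, 3 against 4 libraries, adjusted p = 1.34e-05), and Kat2b was 6.52-fold lower in shKAT2B than in shNS (-2.70 ± 0.09, adjusted p = 2.76e-06). After arm and treatment were fitted, 78.0% of the remaining variance lay along 1 component, which split the libraries into a first set of 4 and a second set of 6. The first set held the A libraries of shKAT2B glucagon, shWDR5 glucagon, shNS glucagon and shNS PBS, and the second held 1 library of each of the 6 groups. The labels name no batch. Between the sets, the median member differed by 0.07 log2 units (second minus first), complex III by 0.17, complex IV by 0.12 and complex II by -0.19, against -0.07 over all genes tested. Counts with the set as a term in the model are therefore given beside the knockdown counts, and their p-values are too small because the set was read from the same libraries. The letters A and B that the groups share were also fitted, as a replicate block, and the lone PBS libraries of both knockdowns, labelled A, lay with the B libraries. Summed over 9 hepatocyte markers, intensity was 36230 to 40570 in shKAT2B, 39260 to 42650 in shWDR5 and 42640 to 49400 in shNS. The 10 Kupffer cell and leukocyte markers summed to 5669 to 10150 in shKAT2B, 5945 to 8384 in shWDR5 and 4650 to 7457 in shNS. Of 8 endothelial markers 1, Eng, passed in shKAT2B (0.48), and of 8 stellate cell and fibroblast markers 0 passed in either knockdown. In the fit with the set, 4 of 8 endothelial and 5 of 8 stellate cell and fibroblast markers were called higher in shKAT2B, and 2 and 3 of them in shWDR5. Of 3 cholangiocyte markers tested Krt7 was lower in shKAT2B (-0.44), and Krt7 (-0.46) and Krt19 (-0.80) were lower in shWDR5, each against shNS. Of the 10 fits that each left out 1 library, 6 kept the Eng call and 7 the Krt7 call in shKAT2B. In shWDR5 6 of 10 kept the Krt7 call and 3 of 10 the Krt19 call. The lowest intensity in the whole table was 4.47, so a value above 0 does not show that a marker is expressed. Of these markers the filter on low values left out Cyp2e1, Marco, Timd4 and Epcam.

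Promoters of members are shown for 2 purposes. Ndufaf3, Ndufa4 and Ndufaf5 are 3 of the members called in a knockdown against shNS, picked by no stated rule. Atp5l and Cox6a1 are the 2 members whose promoter holds both of the motifs searched that are long known from respiratory genes. Each sequence is the RefSeq promoter of GRCm38.p6 upstream of the annotated start, 250 bases, 5′ to 3′ on the strand of the gene. Capitals mark a match on either strand to the NRF1 core GCGCATGC or the ETS core CCGGAAG, the kind of site bound by GABPA (NRF2). Those of Ndufaf3 (chr9:108567437-108567686, minus strand), Ndufa4 (chr6:11907451-11907700, minus strand), Ndufaf5 (chr2:140170396-140170645, plus strand), Atp5l (chr9:44920743-44920992, minus strand) and Cox6a1 (chr5:115348959-115349208, minus strand) read as follows.
Ndufaf3: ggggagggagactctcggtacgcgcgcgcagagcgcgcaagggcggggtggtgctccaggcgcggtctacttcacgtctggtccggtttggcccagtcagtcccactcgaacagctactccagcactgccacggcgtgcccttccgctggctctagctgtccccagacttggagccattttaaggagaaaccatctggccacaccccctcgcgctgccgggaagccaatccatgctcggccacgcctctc
Ndufa4: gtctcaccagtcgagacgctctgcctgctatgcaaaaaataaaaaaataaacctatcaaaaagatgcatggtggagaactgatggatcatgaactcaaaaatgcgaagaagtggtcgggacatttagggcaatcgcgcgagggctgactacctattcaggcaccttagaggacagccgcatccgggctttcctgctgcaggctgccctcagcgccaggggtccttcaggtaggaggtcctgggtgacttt
Ndufaf5: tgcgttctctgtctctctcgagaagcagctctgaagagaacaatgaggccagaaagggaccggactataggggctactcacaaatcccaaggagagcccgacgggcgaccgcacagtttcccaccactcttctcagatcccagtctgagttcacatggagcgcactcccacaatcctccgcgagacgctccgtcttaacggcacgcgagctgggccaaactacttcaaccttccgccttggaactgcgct
Atp5l: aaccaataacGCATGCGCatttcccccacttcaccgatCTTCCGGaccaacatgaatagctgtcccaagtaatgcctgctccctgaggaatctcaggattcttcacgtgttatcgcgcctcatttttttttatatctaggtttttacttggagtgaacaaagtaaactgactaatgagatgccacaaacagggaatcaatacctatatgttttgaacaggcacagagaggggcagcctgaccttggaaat
Cox6a1: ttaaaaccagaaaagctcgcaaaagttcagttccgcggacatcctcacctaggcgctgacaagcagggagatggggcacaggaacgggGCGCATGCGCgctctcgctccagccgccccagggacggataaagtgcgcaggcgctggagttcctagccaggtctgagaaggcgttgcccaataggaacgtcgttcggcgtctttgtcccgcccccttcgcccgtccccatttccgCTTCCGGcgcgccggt
The Cox6a1 promoter carries the NRF1 core on both strands, overlapping, 162 bases before the start, and the ETS core 16 bases before it. In the Atp5l promoter the NRF1 core lies 240 and the ETS core 212 bases before the start. The windows of the 3 called members shown hold neither set of letters, nor the YY1 core AAGATGGCG. Those of Cox7a1, Ndufv2 and Ndufs1, also called against shNS, are not given here, so this does not describe the called members as a whole. Promoters were in the table for 72 of the 88 members, as 77 sequences. Of these 77, 11.7% held the NRF1 core, against 2.26% of all 32851 promoters of the same length, 16.9% held the ETS core, against 6.91%, and 1.3% held the YY1 core, against 0.606%. Median GC content was 57.2% in member promoters and 52.4% in all promoters. The 9 members with an NRF1 core had a median log2 fold change of 0.06 in shKAT2B and -0.04 in shWDR5, each against shNS. The 13 with an ETS core had 0.07 and -0.01, and all members tested had 0.03 and -0.05. In shKAT2B against shWDR5 the medians were 0.09 with an NRF1 core, 0.12 with an ETS core and 0.09 for all members tested.

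Of the 88 members, 83 passed the filter on low values. The 5 left out were all complex IV genes with a tissue-restricted or induced isoform: Cox4i2 (lung), Cox6b2 and Cox8c (testis), Cox8b (heart and muscle) and Ndufa4l2, the hypoxia-induced relative of Ndufa4. All members of complexes I, II, III and V were tested.

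Depletion of WDR5 left most respiratory genes near their level in shNS cells and lowered 4. The 4 were Ndufaf3, an assembly factor that acts with Ndufaf4 early in complex I assembly, Ndufa4, a subunit now placed in complex IV, Cox7a1, the heart and muscle isoform of complex IV subunit VIIa, and Ndufv2, an iron-sulfur core subunit in the NADH-oxidizing end of complex I. They make up 4.82% of the 83 members tested, against 6.17% of all 11481 genes called lower in the same comparison. None was called higher (0 of 83), against 4.69% of all genes. At an unadjusted p under 0.05 there were 7 members (8.43%, against 25.7% of all genes).

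Ndufaf3 had log2 intensities of 9.31 and 9.18 in shWDR5 glucagon and 9.17 in shWDR5 PBS, against 9.71 and 9.73 in shNS glucagon and 9.71 and 9.55 in shNS PBS. The 3 shWDR5 libraries lay below all 4 shNS libraries, 1.39-fold lower (-0.47 ± 0.07, SE, adjusted p = 0.00523). This was the 1 member call in shWDR5 that held without any single library (highest adjusted p = 0.0394). The gene next to it on the opposite strand, Dalrd3, differed from shNS by -0.22 (adjusted p = 0.327) and did not pass.

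Ndufa4 stood at 11.08 and 11.03 in shWDR5 glucagon and 11.10 in shWDR5 PBS, against 11.39 and 11.45 in shNS glucagon and 11.38 and 11.35 in shNS PBS. Again no library of the 2 arms overlapped, and the difference was -0.32 ± 0.05 (SE, 1.25-fold lower, adjusted p = 0.00804). Without the lone shWDR5 PBS library the adjusted p was 0.0529. Cox7a1 stood at 7.08 and 7.34 in shWDR5 glucagon and 7.33 in shWDR5 PBS, against 7.69 and 7.89 in shNS glucagon and 7.69 and 7.76 in shNS PBS. Cox4i2, which the filter left out as low, had 6.94 to 7.21, so the shWDR5 values of Cox7a1 lie near the floor. Cox7a1 fell by 0.51 on the log2 scale (SE 0.12, 1.43-fold, adjusted p = 0.031). Of the 10 fits that each left out 1 library 2 kept this call, and the adjusted p reached 0.0868 without shWDR5 PBS A and 0.0549 with centred medians.

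Ndufv2 changed least of the 4. It had 11.81 and 11.78 in shWDR5 glucagon and 11.76 in shWDR5 PBS, against 11.91 and 12.00 in shNS glucagon and 11.94 and 11.98 in shNS PBS. The difference was -0.17 ± 0.05 (SE, adjusted p = 0.0467), and 1 of the 10 fits without a library kept it (adjusted p = 0.251 without shWDR5 PBS A). It also ended under quantile normalization, centred medians, no filter and no trend (adjusted p = 0.103, 0.122, 0.069 and 0.0886). In a fit of glucagon-treated libraries only, with 2 against 2 libraries, all 4 estimates kept their sign and no call remained (adjusted p = 0.219 for Ndufa4 and 0.226 for Ndufaf3).

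**Figure D1:**
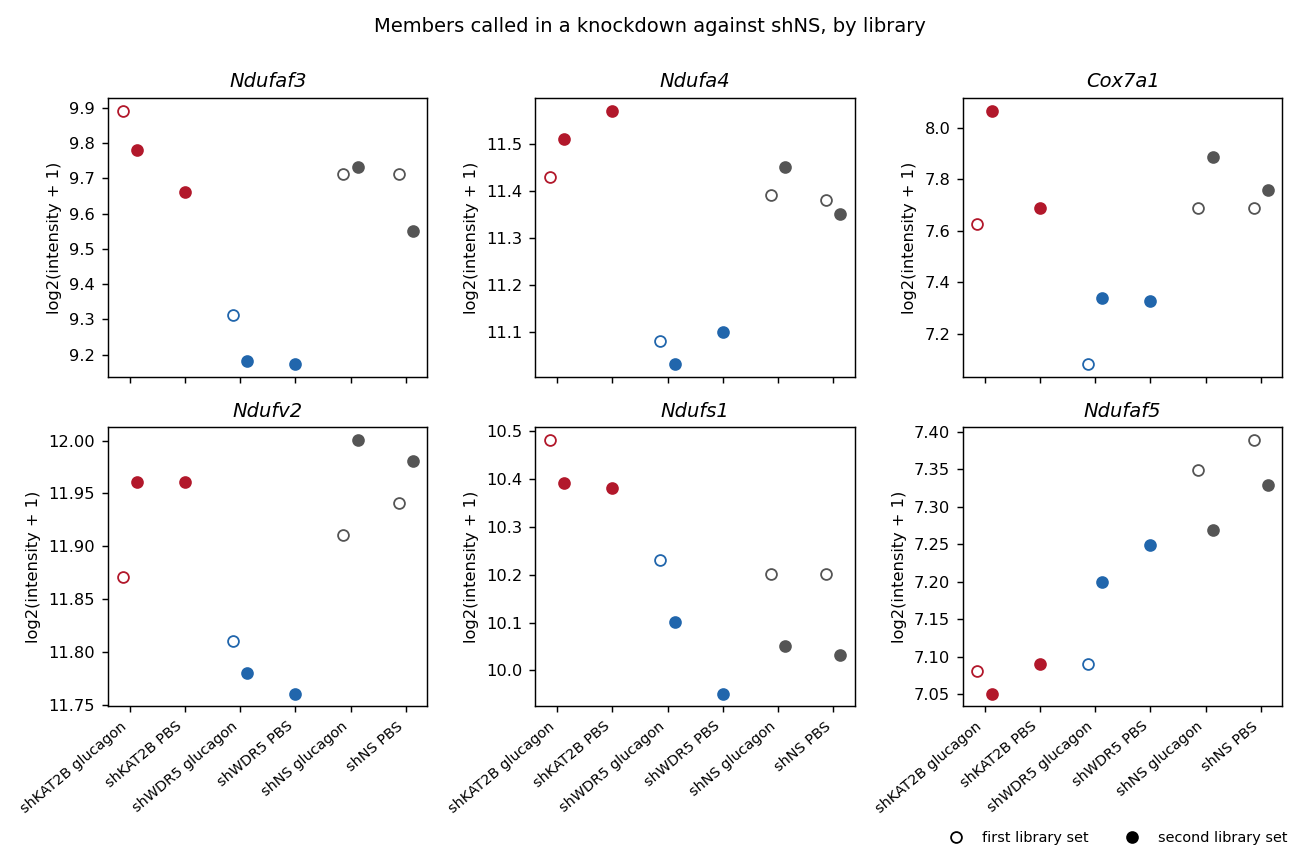
Log2(intensity + 1) of the 6 members called in a knockdown against shNS, 1 panel per gene and 1 point per library, by group. Open points are libraries of the first set and filled points of the second; shWDR5 lies below shNS for Ndufaf3, Ndufa4, Cox7a1 and Ndufv2, and shKAT2B lies above shNS for Ndufs1 and below it for Ndufaf5.

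Over all members tested, the called ones included, the shWDR5 estimates were mostly small and mostly negative. Of 83 members 62 had a negative estimate and 21 a positive one (25.3% positive, against 47.1% of all genes tested). Their median was -0.05, against -0.01 for all genes, and the median size of change was 0.0669, against 0.1233 for all genes. By library, the median deviation of members from their shNS means was -0.08 to -0.05 in shWDR5 and -0.05 to 0.07 in shNS. By complex the medians were -0.07 for complex I, -0.14 for its assembly factors, -0.12 for complex II, -0.02 for complex III, -0.03 for complex IV and -0.01 for complex V. In complex IV 12 of 13 estimates were negative and in complex II all 4 were, though none of complex II passed. The member with the smallest p was Sdhc, a membrane anchor, in complex II (-0.16 ± 0.08, adjusted p = 0.251), Uqcrfs1, the Rieske iron-sulfur protein, in complex III (-0.14 ± 0.08, adjusted p = 0.358) and Atp5g2, a c-ring subunit, in complex V (-0.11 ± 0.05, adjusted p = 0.223). None of these 3 passed. On the positive side the smallest p were those of Ndufa12 (0.14 ± 0.12, adjusted p = 0.535), Ndufaf2 (0.11 ± 0.12, adjusted p = 0.596) and Atp5md (0.04 ± 0.04, adjusted p = 0.644), which did not pass either.

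Within the library sets there were 3 differences between a shWDR5 and a shNS library of the same treatment. In 28 of 83 members (33.7%) all 3 were negative, against 28% of all genes, and in 0 were all 3 positive, against 31% of all genes. With the set as a term 13 members were called lower and 0 higher, when 18.1% of all genes were called lower and 18.8% higher. With the replicate block 8 members were called lower and 0 higher, when 15.7% of all genes were called lower and 11.0% higher. Hepatocyte markers moved with the arm. Of 8 tested 2 fell, Alb by 0.30 and Trf by 0.24 on the log2 scale. The fit with the set called 4 of the 8 lower and 3 of 8 Kupffer cell and leukocyte markers higher. The part of these markers in the member values was not tested. In bulk RNA fewer cells of a type and less RNA per cell cannot be told apart.

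**Figure D2:**
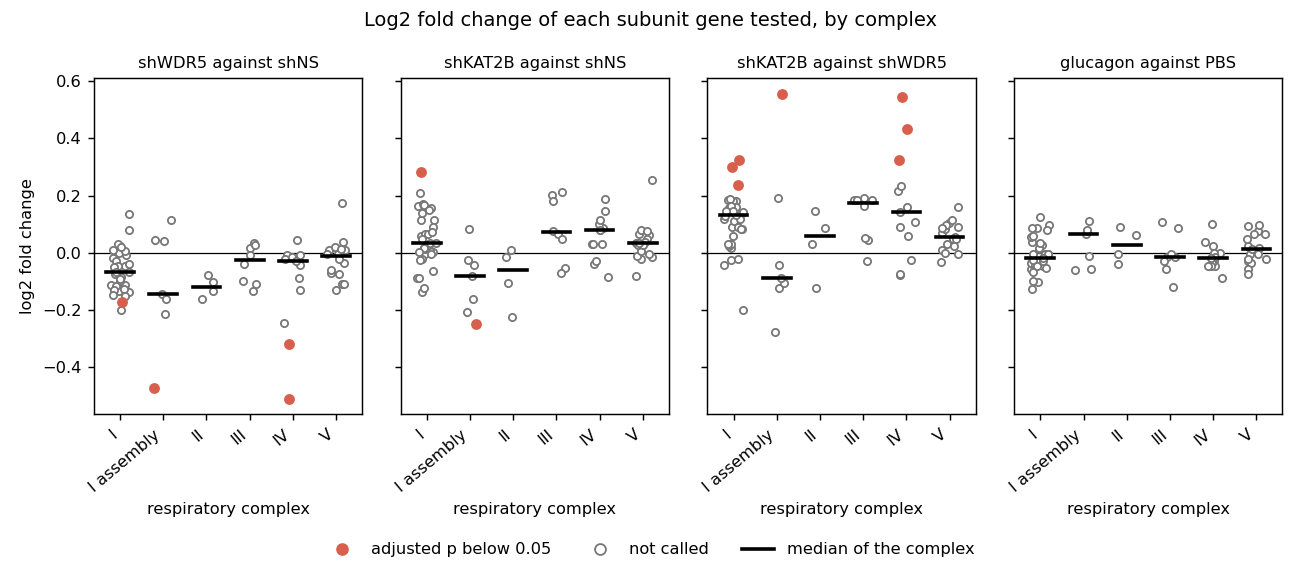
Log2 fold change (vertical axis) of each of the 83 members tested, by respiratory complex, in 4 comparisons. Filled points passed an adjusted p below 0.05, open points did not, and bars are medians of a complex; the medians are below 0 in shWDR5 against shNS, mostly above 0 in both shKAT2B comparisons and near 0 for glucagon.

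Of the 83 members tested, depletion of KAT2B changed 2, 1 in each direction, both in complex I or its assembly. Cox6b2, which the filter left out, was higher in shKAT2B in a fit without the filter (0.70 ± 0.12, adjusted p = 0.00537). Ndufs1, the largest iron-sulfur core subunit of complex I, rose, and Ndufaf5, an enzyme that in human cells hydroxylates a complex I core subunit during assembly, fell. Each is 1.2% of the 83 members tested, against 6.65% of all genes called higher and 8.95% called lower. At an unadjusted p under 0.05 there were 7 members (8.43%, against 29.0% of all genes).

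Ndufs1 had log2 intensities of 10.48 and 10.39 in shKAT2B glucagon and 10.38 in shKAT2B PBS, against 10.20 and 10.05 in shNS glucagon and 10.20 and 10.03 in shNS PBS. All 3 shKAT2B libraries were above the 4 shNS libraries (0.28 ± 0.08, SE, 1.22-fold, adjusted p = 0.0383). Leaving out 1 library kept this call in 3 of 10 fits, and the adjusted p was 0.198 without shKAT2B PBS A. Without the filter on low values it was 0.0511. Ndufaf5 had 7.08 and 7.05 in shKAT2B glucagon and 7.09 in shKAT2B PBS, against 7.35 and 7.27 in shNS glucagon and 7.39 and 7.33 in shNS PBS. The groups did not overlap (-0.25 ± 0.06, SE, 1.19-fold lower, adjusted p = 0.0282), and 4 of 10 fits without a library kept the call (adjusted p = 0.174 without shKAT2B PBS A). The shKAT2B values of Ndufaf5 lay in the range of Cox4i2 (6.94 to 7.21), which the filter left out as low. Ndufaf5 thus passed the filter through the other arms, and the size of its fall is uncertain so near the floor. Ndufaf5 also ended when the filter was raised to 50% of genes, since it was then not tested.

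Over all members tested, the called ones included, the shKAT2B estimates leaned to the positive side. Of 83 members 55 were positive and 28 negative (66.3% positive, against 51.8% of all genes), with a median of 0.03, against 0.01 for all genes. By library, the median deviation of members from their shNS means was -0.03 to 0.08 in shKAT2B and -0.05 to 0.07 in shNS, which overlap. The medians were 0.08 in complex IV, 0.07 in complex III, 0.03 in complexes I and V, -0.06 in complex II and -0.08 in the assembly factors, of which 6 of 7 were negative. Next to pass would have been Ndufa13, also known as GRIM-19, an accessory subunit of complex I (0.21 ± 0.06, adjusted p = 0.0551). Uqcrh, the hinge subunit of complex III, followed (0.21 ± 0.07, adjusted p = 0.0747). Among the negative ones Ndufaf7, in human cells a methyltransferase of complex I assembly (-0.21 ± 0.09, adjusted p = 0.17), and Sdha, the flavoprotein of complex II (-0.23 ± 0.10, adjusted p = 0.175), did not pass. With the replicate block Ndufa13, Uqcrh and Sdha passed, at an adjusted p of 0.0339, 0.00835 and 0.00832 in that order. The smallest p in complex IV was that of Cox7a2l, which takes part in joining complexes III and IV into supercomplexes (0.19 ± 0.08, adjusted p = 0.149), and in complex V that of Atp5d, a subunit of the F1 head (0.07 ± 0.04, adjusted p = 0.295). Neither passed.

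All 3 differences within a library set were positive in 28 members (33.7%, against 35.2% of all genes) and negative in 14 (16.9%, against 29.6%). With the set as a term 8 members were called higher and 3 lower, when 21.5% of all genes were called higher and 20.0% lower. With the replicate block 8 were called higher and 2 lower, when 12.6% of all genes were called higher and 16.9% lower. Hepatocyte markers were lower here too, with a median of -0.48 over the 8 tested. Of these 3 fell: Ttr by 0.91, Cps1 by 0.64 and Hnf4a by 0.33 on the log2 scale. Of the 10 fits that each left out 1 library, 10 kept the Ttr call, 4 that of Cps1 and 9 that of Hnf4a. Of 8 Kupffer cell and leukocyte markers none passed, with a median of 0.47. The fit with the set called 8 of 8 hepatocyte markers lower and 5 of 8 Kupffer cell and leukocyte markers higher. Their part in the member values was not tested.

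Set directly against each other, the 2 knockdowns differed in 7 respiratory genes. All 7 were higher in shKAT2B than in shWDR5, and 0 were lower. The 7 are 8.43% of the 83 members, against 11.2% of all genes called higher, and 11.5% of all genes were called lower. They were Ndufaf3 (0.56 ± 0.07), Cox7a1 (0.54 ± 0.13), Ndufa4 (0.43 ± 0.06), Cox7a2, the isoform of subunit VIIa used in liver (0.32 ± 0.09), Ndufs1 (0.32 ± 0.08), Ndufb2, an accessory subunit in the membrane arm of complex I (0.30 ± 0.07), and Ndufa13 (0.24 ± 0.07). Adjusted p were 0.00113, 0.0163, 0.001, 0.0325, 0.0212, 0.0162 and 0.0318 in the same order (SE, 3 against 3 libraries).

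Cox7a2 had 11.04 and 11.28 in shKAT2B glucagon and 11.27 in shKAT2B PBS, against 10.80 and 10.87 in shWDR5 glucagon and 10.95 in shWDR5 PBS. Ndufb2 had 8.46 and 8.48 in shKAT2B glucagon and 8.59 in shKAT2B PBS, against 8.22 and 8.20 in shWDR5 glucagon and 8.21 in shWDR5 PBS. Ndufa13 had 10.76 and 10.85 in shKAT2B glucagon and 10.85 in shKAT2B PBS, against 10.63 and 10.53 in shWDR5 glucagon and 10.59 in shWDR5 PBS. For each of these 3 genes every shKAT2B library exceeded every shWDR5 library. The shNS libraries lay between 11.01 and 11.28 for Cox7a2, which spans most of the shKAT2B range. Ndufaf3 and Ndufa4 kept the call without any single library (highest adjusted p = 0.00892 and 0.00926). Cox7a1 lost it in 1 of 10 such fits (adjusted p = 0.0501 without shWDR5 glucagon A), and Cox7a2, Ndufs1, Ndufb2 and Ndufa13 lost it in some, with an adjusted p of up to 0.13 (Cox7a2 without shKAT2B PBS A). In a fit of only the libraries of these 2 arms, Ndufaf3 and Ndufa4 were called, and with glucagon-treated libraries only 0 were.

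The direction was shared across most complexes. Of 83 members 66 were higher in shKAT2B by estimate (79.5%, against 53.7% of all genes), with a median of 0.09, against 0.02 for all genes. Members also shifted together between replicates. Their median A minus B difference was -0.14 within shNS glucagon, -0.09 within shKAT2B glucagon, 0.03 within shWDR5 glucagon and -0.03 within shNS PBS. Counts of signs are therefore not counts of independent genes. By complex, medians of shKAT2B against shWDR5 were 0.17 in complex III (7 of 8 positive), 0.14 in complex IV (10 of 13), 0.13 in complex I (30 of 34), 0.06 in complex V (14 of 17) and 0.06 in complex II (3 of 4). The assembly factors of complex I ran the other way in 5 of 7, with a median of -0.09. The smallest p among negative estimates were those of Ndufaf2 (-0.28 ± 0.12, adjusted p = 0.146), Ndufaf5 (-0.11 ± 0.07, adjusted p = 0.302) and Ndufa12 (-0.20 ± 0.13, adjusted p = 0.307), and none passed. In 43 members (51.8%, against 34.1% of all genes) the 3 differences within a library set were all positive, and in 8 (9.64%, against 30.7%) all negative. With the set as a term 33 members were called higher and 3 lower, when 25.9% of all genes were called higher and 24.6% lower. With the replicate block 13 were called higher and 0 lower, when 18.1% of all genes were called higher and 17.9% lower. The 33 comprised 17 of complex I, 2 of its assembly factors, 1 of complex II, 4 of complex III, 7 of complex IV and 2 of complex V.

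Complex IV has pairs of isoforms, a widely used one and one restricted to certain tissues. Cox7a1 was lower in shWDR5, as above, and its estimate in shKAT2B was 0.03 against shNS. Its partner Cox7a2 did not pass in either knockdown against shNS. All 3 shWDR5 libraries of Cox7a2 (10.80 to 10.95) nevertheless lay below all 4 shNS libraries (11.01 to 11.28), with a difference of -0.24 ± 0.09 (SE, adjusted p = 0.111, and 0.00372 with the set as a term). Acta1, 1 of the 4 muscle and heart markers and 1 of the 2 that passed the filter, fell by 0.78 in shWDR5 and by 0.75 in shKAT2B on the log2 scale. The other, Tnnt2, differed by 0.35 ± 0.36 in shWDR5 (adjusted p = 0.594) and by -0.01 ± 0.36 in shKAT2B (adjusted p = 0.986) and did not pass, though with the replicate block it was called higher in shWDR5 (0.54, adjusted p = 0.0214) and with the set as a term lower in shKAT2B (-0.21, adjusted p = 0.0392). Of the 10 fits that each left out 1 library, 3 kept the Acta1 call in shWDR5 and 5 kept it in shKAT2B. The part of the muscle and heart markers in the Cox7a1 value was not tested. Cox6a2, the heart and muscle partner of Cox6a1, had 7.49 to 7.64 in shWDR5, 7.65 to 7.84 in shKAT2B and 7.60 to 7.81 in shNS, which overlap.

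**Figure D3:**
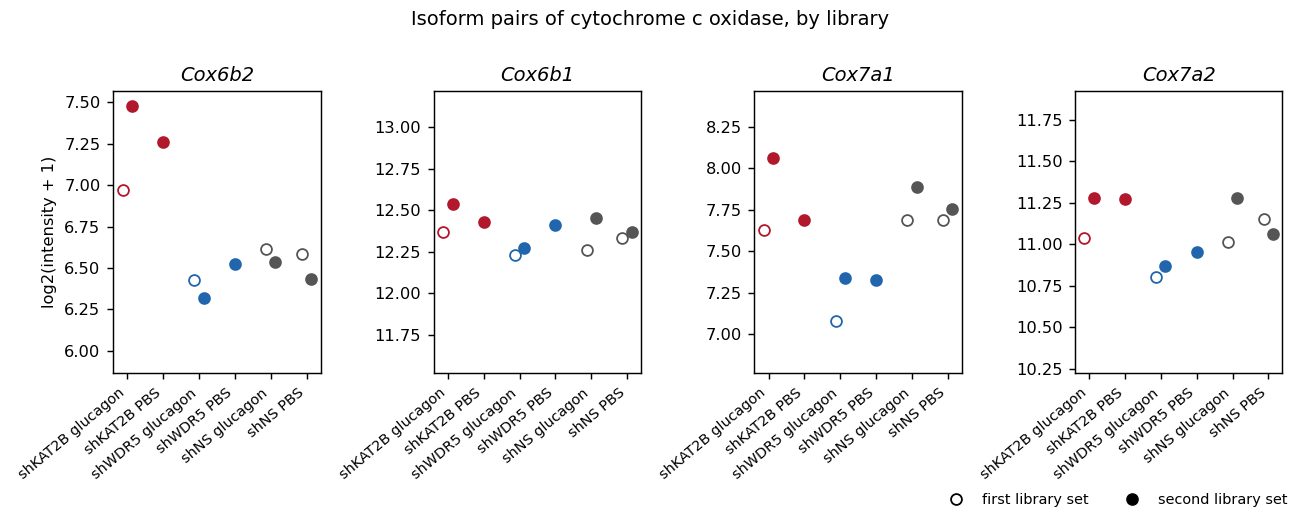
Log2(intensity + 1) of Cox6b2 and its partner Cox6b1, and of Cox7a1 and its partner Cox7a2, 1 point per library, by group, with vertical axes of equal span. Open points are the first library set; Cox6b2 is higher in all 3 shKAT2B libraries (6.97 to 7.48) than in shWDR5 and shNS (6.32 to 6.61), and Cox7a1 is lower in the 3 shWDR5 libraries.

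No respiratory gene was called after 90 min of glucagon. Of 83 members 0 were called higher and 0 lower (limma, adjusted p below 0.05), against 0.679% and 0.244% of all genes. At an unadjusted p under 0.05 there was 1 member (1.2%, against 4.78% of all genes). With the set as a term the counts were again 0 and 0, when 1.92% and 1.43% of all genes were called. There 3 members had an unadjusted p under 0.05 (3.61%, against 10.6% of all genes). With the replicate block 0 and 0 were called, when 1.85% and 0.653% of all genes were. In that fit 13 members had an unadjusted p under 0.05 (15.7%, against 23.3% of all genes). In the same libraries Ppargc1a had log2 intensities of 10.51 and 10.35 in shKAT2B glucagon against 8.76 in shKAT2B PBS. It had 10.97 and 10.95 in shWDR5 glucagon against 9.45 in shWDR5 PBS, and 10.78 and 10.77 in shNS glucagon against 9.02 and 8.85 in shNS PBS. Each glucagon library exceeded each PBS library (1.70 ± 0.07, SE, adjusted p = 1.11e-05).

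The members' estimates for glucagon ranged from -0.13 to 0.12, with a median of -0.01. The 95% interval lay within 0.5 log2 units of 0 on both sides in 82 of 83 members, so that a change of 1.41-fold or more lay outside the interval of those 82. The remaining one, Atp5l, a membrane subunit of complex V, varied between the library sets, from 9.40 to 9.61 in the first set and 9.90 to 10.27 in the second, and its interval reached -0.51. Medians by complex lay between -0.02 in complex IV and 0.07 in the assembly factors. The smallest p were those of Atp5md (0.09 ± 0.04, adjusted p = 0.826), Ndufaf3 (0.11 ± 0.06, adjusted p = 0.962) and Cox5b (0.10 ± 0.07, adjusted p = 0.962) on the positive side. On the negative side they were those of Cox6a2 (-0.09 ± 0.07), Uqcr10 (-0.12 ± 0.10) and Ndufaf5 (-0.06 ± 0.05), all at an adjusted p of 0.962. None of the 6 passed.

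**Figure D4:**
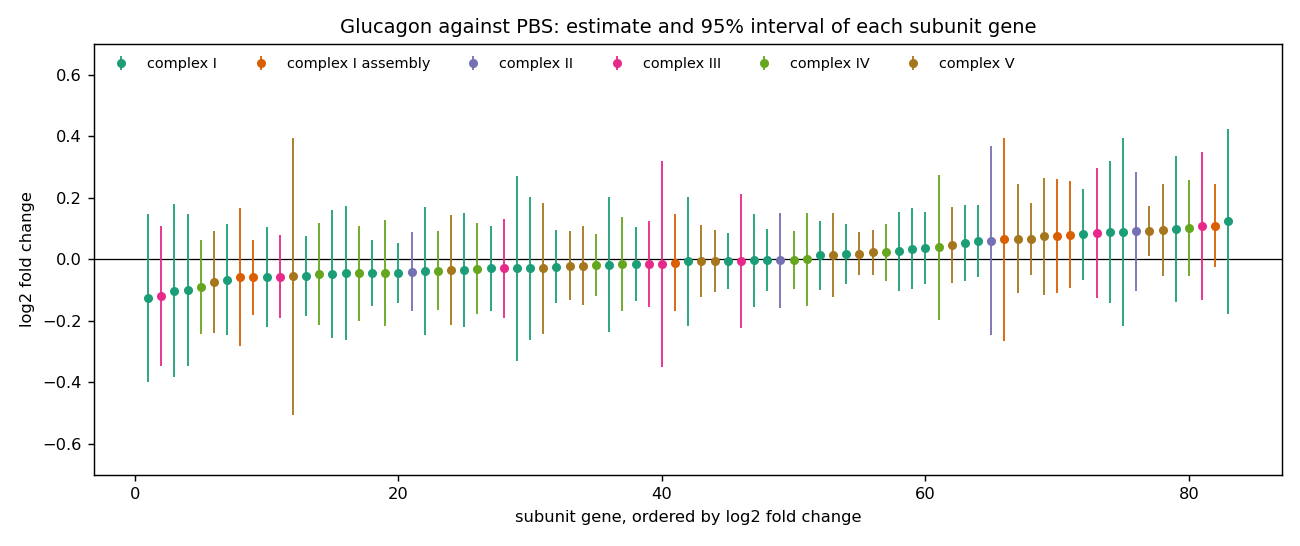
Log2 fold change of glucagon against PBS (vertical axis) for the 83 members tested, ordered by estimate and coloured by complex, with 95% intervals from the additive model. Estimates run from -0.13 to 0.12 and 82 of 83 intervals lie within 0.5 of 0.

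Whether a knockdown altered the response to glucagon was tested as an interaction. Of 83 members 0 were called for shKAT2B and 0 for shWDR5, each against shNS, and 0.0% of all 11481 genes were called in either test. No member had an unadjusted p under 0.05 in these tests. Each knockdown had a single PBS library, and 38 of 83 members for shKAT2B and 32 of 83 for shWDR5 had an interval within 0.5 log2 units of 0. With the set as a term 77 and 81 of 83 had one, in the same order. Again 0 members were called, when 0.0174% of all genes were called for shKAT2B and 0.0% for shWDR5. The set was read from what the model without interaction left over in these libraries. Its intervals are therefore too narrow, and the set can take up part of an interaction. With the replicate block 8 members were called for shKAT2B (4 positive and 4 negative) and 5 for shWDR5 (2 positive and 3 negative), when 12.1% and 4.75% of all genes were called. The lone PBS libraries, which that block counts with the A libraries, lay with the B libraries.

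Other genes of the pathway were read from further lists. Over all genes tested, 6.65% were called higher and 8.95% lower in shKAT2B, and 4.69% and 6.17% in shWDR5, each against shNS. Of the subunits encoded by mitochondrial DNA 2 were measured, and 0 of them passed in any comparison. Of 13 other subunits and electron carriers, which include the member Atp5mpl, 2 fell in each knockdown against shNS and 0 rose. Both were the subunits of the electron transfer flavoprotein, which carries electrons from fatty acid oxidation into the chain. In shKAT2B Etfa differed by -0.18 ± 0.05 and Etfb by -0.27 ± 0.07, and in shWDR5 Etfa differed by -0.19 ± 0.05 and Etfb by -0.30 ± 0.07. The 2 comparisons share the 4 shNS libraries. Etfb had 11.90 and 11.82 in shKAT2B glucagon and 11.81 in shKAT2B PBS, 11.96 and 11.67 in shWDR5 glucagon and 11.82 in shWDR5 PBS, against 12.08 to 12.17 in shNS. Of 23 assembly factors of complexes III, IV and V, 2 rose and 2 fell in shKAT2B. Lyrm7, a chaperone of the Rieske protein (0.40 ± 0.07), and Cox11, a copper chaperone of complex IV (0.45 ± 0.11), rose, while Cox15, of heme a synthesis (-0.29 ± 0.06), and Atpaf2, which assembles the F1 head of complex V (-0.67 ± 0.09), fell. In shWDR5 0 of the 23 rose and 2 fell, Atpaf2 (-0.38 ± 0.09) and the complex IV factor Coa5 (-0.45 ± 0.11). Of 8 complex I assembly factors without an Nduf name, 0 passed in shKAT2B, and in shWDR5 Tmem186 rose (0.27 ± 0.07) and Dmac2 fell (-0.34 ± 0.08).

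Among 17 genes of the TCA cycle 1 rose and 3 fell in shKAT2B. Ogdh, of the oxoglutarate dehydrogenase complex, rose (0.30 ± 0.06), and Dlat, of the pyruvate dehydrogenase complex (-0.48 ± 0.06), Fh1, fumarase (-0.40 ± 0.10), and Idh2, mitochondrial isocitrate dehydrogenase (-0.30 ± 0.06), fell. In shWDR5 0 rose and 2 fell, Dlat (-0.36 ± 0.06) and Sucla2, a subunit of succinyl-CoA ligase (-0.35 ± 0.07). Fh1 was the TCA cycle gene that rose with glucagon, with 11.07 and 10.79 in shKAT2B glucagon against 10.49 in shKAT2B PBS, 11.21 and 11.00 in shWDR5 glucagon against 10.60 in shWDR5 PBS, and 11.38 and 11.24 in shNS glucagon against 11.05 and 10.77 in shNS PBS (0.44 ± 0.08, SE, adjusted p = 0.0489). Within each arm the glucagon libraries lay above the PBS libraries. Of 18 genes of import and carriers, 2 fell in shKAT2B, the import receptor Tomm70a (-0.33 ± 0.08) and the outer membrane channel Vdac2 (-0.17 ± 0.04), and 1 fell in shWDR5, the import receptor Tomm22 (-0.53 ± 0.07). Of 18 regulators of mitochondrial gene expression, 0 passed in shKAT2B and 1, Ppargc1a, was higher in shWDR5 (0.32 ± 0.08, adjusted p = 0.0444).

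With the library set as a term more of these list genes were called, and more of all genes. Over all genes tested, 21.5% were then higher and 20.0% lower in shKAT2B, and 18.8% higher and 18.1% lower in shWDR5. Of the 13 other subunits and electron carriers 3 were then higher and 2 lower in shKAT2B, and 1 higher and 5 lower in shWDR5. Of the 23 assembly factors of complexes III, IV and V 6 were higher and 5 lower in shKAT2B, and 2 higher and 7 lower in shWDR5. For the 8 of complex I the counts were 1 higher and 2 lower in shKAT2B, and 1 higher and 3 lower in shWDR5. Of the 17 genes of the TCA cycle 1 was higher and 4 lower in shKAT2B, and 4 higher and 5 lower in shWDR5. Of the 18 genes of import and carriers 5 were lower in shKAT2B and 3 in shWDR5, and 0 higher in either. Of the 18 regulators 3 were higher and 1 lower in shKAT2B, and 3 higher and 0 lower in shWDR5.

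In shKAT2B against shWDR5, without that term, the same lists gave calls in both directions. Over all genes tested, 11.2% were called higher there and 11.5% lower. Of the other subunits and electron carriers 3 were higher in shKAT2B, the complex II assembly factors Sdhaf2 (0.42 ± 0.08) and Sdhaf4 (0.38 ± 0.09) and the flavoprotein oxidoreductase Etfdh (0.35 ± 0.10), and 1 was lower, the glycerol phosphate dehydrogenase Gpd2 (-0.25 ± 0.06). Of the assembly factors of complexes III, IV and V, Coa5 (0.56 ± 0.11), Lyrm7 (0.48 ± 0.07) and Cox18 (0.27 ± 0.06) were higher and Atpaf1 (-0.32 ± 0.10) was lower, and of those of complex I Dmac2 was higher (0.37 ± 0.09). In the TCA cycle Ogdh (0.52 ± 0.06) and Sucla2 (0.33 ± 0.07) were higher and Idh2 (-0.44 ± 0.06) and citrate synthase, Cs (-0.17 ± 0.05), were lower. Tomm22 (0.53 ± 0.08) and the ADP/ATP carrier Slc25a4 (0.20 ± 0.05) were higher, and Vdac2 (-0.14 ± 0.04) and Ppargc1a (-0.58 ± 0.09) were lower. Of the 41 calls among these list genes over the 4 comparisons, 12 held without any single library: Tomm22 in shWDR5 against shNS, Lyrm7, Atpaf2 and Dlat in shKAT2B against shNS, Ppargc1a for glucagon, and Sdhaf2, Coa5, Lyrm7, Idh2, Ogdh, Ppargc1a and Tomm22 in shKAT2B against shWDR5. The other 29 ended in 1 or more of the 10 fits, and the highest adjusted p mostly came without the lone PBS library of a knockdown. The Lyrm7 calls among those that held are of a gene that was tested only through shKAT2B, where it was high. The Etfa and Etfb calls reached an adjusted p of 0.198 and 0.178 without shKAT2B PBS A in shKAT2B, and of 0.187 and 0.134 without shWDR5 PBS A in shWDR5, and Fh1 under glucagon reached 0.342 without shWDR5 PBS A.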

How the data were processed

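RNA was hybridised to Affymetrix arrays (the probe annotation is that of a Mouse Gene platform), 1 array per library. The deposited table holds intensity on a linear scale, 26913 probe sets in 10 libraries, with medians of 282.1 to 298.2, and 100% of the values are powers of 2 whose exponent has 2 decimals, within 0.0001. The authors used Affymetrix Expression Console 1.1.1, per the submitters' processing notes. How the values were normalized is not stated in the labels. The number of arrays limits the precision.

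Of the probe sets 17873 had 1 gene symbol, 1128 several and 7912 none. The 6 probe sets with several symbols that include a member name were not used. Members with more than 1 probe set numbered 17. The scale used was log2(intensity + 1). The lowest 30% of genes by mean were left out, which left 11481. Differences came from limma 3.58.1 in R 4.3.3 (additive model of arm and treatment, 6 residual degrees of freedom, eBayes with trend), and interactions from a model of 6 group means (4 residual degrees of freedom). In both, a group with 1 library was assumed to vary like the others. Adjusted p are Benjamini-Hochberg values over all genes tested, two-sided, called below 0.05, and errors after ± are standard errors. Letters A and B are shared by the groups. Deviations of the A libraries from their group means correlated at 0.721 to 0.844 in all 6 pairs of groups with 2 libraries, so results with the letter as a replicate block are given where it moved a count or a call, although the lone PBS libraries of both knockdowns, labelled A, lay with the B libraries. The code was tested on simulated data. Alternatives were other normalizations, filters, pseudocounts and models, fewer libraries and leaving out each library. Figures used Python 3.11.15, pandas 2.3.3 and matplotlib 3.10.9.

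Named are the hairpin targets, the called members, where fewer than 3 were called in a direction the 3 with the smallest p there, the member with the smallest p of each complex in each knockdown, the members left out by the filter, isoform partners, and up to 4 called genes of each other list. Dalrd3 and Tnnt2 were chosen after their values were seen. Members and lists were chosen with earlier results of these data known. Positions are those of the RefSeq promoter table, since the build behind the probe annotation is not given.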

Additional observations from a re-analysis of the deposited data

Results flagged for a closer look

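Cox6b2, the testis isoform of complex IV subunit VIb, was left out of the tests by the filter on low values, yet it differed between arms. Its log2 intensity was 6.97 and 7.48 in shKAT2B glucagon and 7.26 in shKAT2B PBS, 6.43 and 6.32 in shWDR5 glucagon and 6.53 in shWDR5 PBS, and 6.44 to 6.61 in shNS. In a fit without the filter it was higher in shKAT2B than in shNS by 0.70 ± 0.12 (SE, limma, adjusted p = 0.00537) and higher than in shWDR5 by 0.81 ± 0.12 (adjusted p = 0.00231). All 3 shKAT2B libraries lay above the 7 others. Its widely used partner Cox6b1 had 12.37 to 12.54 in shKAT2B, 12.23 to 12.41 in shWDR5 and 12.26 to 12.45 in shNS, which overlap. The other 4 members left out by the filter did not pass in that fit in any of these comparisons.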

How the results depend on the processing

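Shares in brackets are those of all genes called in the same direction in the same fit. Members called lower in shWDR5 against shNS numbered 4 (6.17%), and 2 with centred medians (6.87%). They numbered 8 with the replicate block (15.7%), 13 with the library set as a term (18.1%) and 11 on the second library set alone (14.8%). With glucagon-treated libraries only they numbered 0 (0.00871%). For shKAT2B against shNS, members called higher numbered 1 (6.65%), and 2 under quantile normalization (9.08%) or centred medians (7.15%). They numbered 8 with the replicate block (12.6%) or the library set (21.5%), and 5 on the second set alone (18.6%). With only the 2 arms compared (4.7%) or glucagon-treated libraries only (0.0697%) they numbered 0. Members called lower there numbered 1 (8.95%), 2 with the replicate block (16.9%) or the second set alone (18.5%), and 3 with the library set (20.0%). They numbered 0 with the filter raised to 50% of genes (11.0%) or glucagon-treated libraries only (0.348%). For shKAT2B against shWDR5, members called higher numbered 7 (11.2%), and 13 with the replicate block (18.1%). They numbered 33 with the library set (25.9%) and 29 on the second set alone (24.0%). With only the 2 arms compared they numbered 2 (6.98%), and 0 with glucagon-treated libraries only (1.16%). Members called lower there numbered 0 (11.5%), and 3 with the library set (24.6%) or the second set alone (21.3%). The replicate block called 5 members for the interaction of glucagon with shWDR5 and 8 for that with shKAT2B (4.75% and 12.1% of all genes), where the model without it called 0. It removed no call of a member or of a gene of the other lists. The cause of these differences was not tested, beyond there being fewer libraries or genes in some fits. Leaving out 1 library gave 1 to 4 members lower in shWDR5 (1.72% to 6.81%), and 1 without shWDR5 PBS A (1.72%). In shKAT2B it gave 0 to 2 higher (1.93% to 7.82%) and 0 to 1 lower (3.27% to 10.7%). In shKAT2B against shWDR5 it gave 3 to 10 higher (6.1% to 11.6%). There 3 were called without shKAT2B PBS A (6.66%) or shWDR5 PBS A (6.1%), and 4 without shKAT2B glucagon B (7.27%) or shWDR5 glucagon B (7.06%). Leaving out 1 library gave 0 called for glucagon in each of 10 fits and for the interactions in each of 9.

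Medians of all members kept their sign in the 23 alternatives for each arm comparison (-0.09 to -0.03 in shWDR5, 0.02 to 0.07 in shKAT2B, 0.07 to 0.12 between them) and changed it among the 22 for glucagon (-0.04 to 0.03). Of 766 values of named members under alternatives 0 turned direction, 77 lost a call and 21 gained one. Most of these members were named for their p in the main fit. Some alternatives, such as eBayes without trend, leave each estimate as it was, so the kept directions are partly set in advance. The filter leaves 5 isoforms untested, and 3 libraries per knockdown limit what could be called.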
